A study of Homo sapiens and Mus musculus with 99 samples.

Results

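The 6 libraries described here, of 99 in the series, are RNA sequencing libraries of NCI-H292 cells treated with either of 2 knockout fungal extracts or with buffer. They were taken by their labels: 2 libraries of the extract labelled aegs KO ALT, 2 of the extract labelled aegl KO ALT and 2 of the mock treatment DPBS, a buffered saline. All 6 belong to one deposited count table, which also holds 2 libraries of the extract labelled WT ALT. RNA was taken 4 h after treatment in every group. ALT is an extract of the mould *Alternaria alternata*, and NCI-H292 is an epithelial line from a human non-small cell lung cancer, so every group here is 1 cell line grown in culture. The series' text calls the libraries of a group biological replicates, and nothing says whether they came from separate cultures or days. The p-values therefore measure the spread between libraries, estimated over all 8 of the table, the WT libraries included. The labels state neither the dose of the extracts nor their protein content nor how the knockouts were made. The knocked-out genes belong to the fungus and cannot be checked in counts over human genes.

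*Alternaria* is a common airborne mould and a known trigger of allergic asthma, and its extracts hold many proteins that airway epithelium can respond to. Aeg-S and Aeg-L are proteins that the series treats as pore-forming, alone or as a pair; proteins of this kind open holes in the cell membrane that let ions such as calcium pass. Epithelial cells answer growth factors and membrane damage through the kinase ERK, which within minutes switches on immediate early transcription factors and then a set of inhibitors of its own pathway: dual-specificity phosphatases, Sprouty and Spred proteins. The question behind the comparisons is what an extract lacking aegs or aegl still changes in the cells, and whether the pair differ from each other.

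The libraries held 33.0 to 45.5 M counted fragments. All 10 epithelial markers stood above 1 CPM (CPM is the counts of a gene per 1 M counts of its library, scaled by edgeR's TMM factors) in every group, with sums of 5000 to 5680 CPM under aegl KO, 4950 to 5060 CPM under aegs KO and 5110 to 5220 CPM under DPBS. The 8 leukocyte markers summed to 2.49 to 3.15 CPM under aegl KO, 1.87 to 2.09 CPM under aegs KO and 2.01 to 2.31 CPM under DPBS, nearly all from CD14 (0.897 to 2.39 CPM) and ITGAM (0.27 to 1.0 CPM), while PTPRC was at most 0.0956 CPM. CD14 was the only one of the 8 to average above 1 CPM in any group, and did so under aegl KO, WT and DPBS and not under aegs KO, and the part of these values in the results was not tested. COL1A1 was the only one of 8 fibroblast markers above 1 CPM (18.7 to 51.5 CPM), and the endothelial gene CDH5 stood at 50.7 to 68 CPM in this line, with VWF at 0.598 to 2.78 CPM. One library stood apart in mitochondrial transcripts, which made up 0.554% of the counts of aegl KO 1 and 2.24 to 2.79% in the other 5.

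The extract without aegs left no gene that passed the test. Against DPBS, 0 of 16613 genes (0%) were called by edgeR's quasi-likelihood test at an adjusted p under 0.05, 308 genes (1.85%) had an unadjusted p under 0.05, and DESeq2 called 1 (0.00602%). That gene, ENSG00000224882.2, has no name in the tables used here, was 3.25 higher on the log2 scale (DESeq2 adjusted p = 0.0442) and was found outside the naming rule. Same-numbered aegs KO and DPBS libraries varied together (correlation of their deviations from the group means 0.513). The test used no pairing, so the count for aegs KO carries that limit. The extract without aegl left a small response. Against DPBS, 20 of 16613 genes (0.120%) were called by edgeR: 16 rose (0.0963%) and 4 fell (0.0241%), 11 and 3 of them by at least 2-fold, and 2239 genes (13.5%) had an unadjusted p under 0.05. In the same table the WT extract raised 1924 genes (11.6%) and lowered 1874 (11.3%, 22.9% in all), against the same DPBS libraries. In counts of whole cultures, a change in every cell and a change in some cells cannot be told apart.

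The 20 genes are few and depend on the libraries and the tool. DESeq2 called 288 genes, 149 higher and 139 lower (2.51%), among them all 20. The fit took its spread from the WT libraries too, which lay closer to each other. The standard deviation of the log2 difference within a pair was 0.172 for WT, 0.316 for aegl KO, 0.342 for aegs KO and 0.268 for DPBS. With the WT libraries left out of the fit, edgeR called 7 genes, all of them among the 20. Leaving out aegl KO 1, the library poor in mitochondrial transcripts, left 8 genes, and 7 of the 20 kept their call. The count was 103 without aegl KO 2, with 17 of the 20 kept, 4 without DPBS 1, with 4 kept, and 8 without DPBS 2, with 6 kept. SPRY4, DUSP6, PHLDA1 and DUSP4 kept their call under every alternative tried, with any library left out and with either tool. The WT total was 1481 without WT 1, 1520 without WT 2, 1530 without DPBS 1 and 2519 without DPBS 2.

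Those 4 genes with the firmest calls, and 6 of the 16 that rose, belong to the list of ERK feedback and output genes. The members of that list were chosen with earlier results of these data known. The phosphatase gene DUSP6 (ENSG00000139318.7, chromosome 12, 89741009 to 89747048 in hg19, minus strand) encodes an enzyme that removes the activating phosphates of ERK. It stood at 7.63 and 6.96 CPM under aegs KO, 35.0 and 34.8 CPM under aegl KO, 219 and 214 CPM under WT, and 5.12 and 6.82 CPM under DPBS. The aegl KO libraries lay above all aegs KO and DPBS libraries and well below both WT libraries, and aegs KO lay just above DPBS without overlap. DUSP6 rose by 2.55 ± 0.15 (log2 change ± SE, 5.87-fold) with aegl KO against DPBS (edgeR adjusted p = 9.29e-05). With aegs KO its change was 0.30, with a 95% confidence interval from -0.04 to 0.63 (adjusted p = 0.9997).

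SPRY4 (ENSG00000187678.8, chromosome 5, 141689992 to 141706020 in hg19, minus strand) encodes a Sprouty protein, an inhibitor of signalling from receptor tyrosine kinases to ERK. Its values were 1.24 and 1.38 CPM under aegs KO, 7.05 and 7.0 CPM under aegl KO, 20.1 and 18.7 CPM under WT, and 0.957 and 1.23 CPM under DPBS. The pattern across groups was that of DUSP6, with aegl KO between WT and the other 4 libraries. SPRY4 rose by 2.69 ± 0.21 with aegl KO (6.45-fold, edgeR adjusted p = 0.0004561), the largest increase called. Its change with aegs KO was 0.27, with an interval from -0.23 to 0.76.

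PHLDA1 (ENSG00000139289.9, chromosome 12, 76419227 to 76427712 in hg19, minus strand), a gene induced by ERK signalling, stood at 31.1 and 35.1 CPM under aegs KO, 94.6 and 86.2 CPM under aegl KO, 218 and 219.9 CPM under WT, and 29.0 and 29.8 CPM under DPBS. It rose by 1.62 ± 0.12 with aegl KO (3.07-fold, edgeR adjusted p = 0.0004337). DUSP4, a nuclear phosphatase of ERK and related kinases, stood at 54.9 and 62.0 CPM under aegs KO, 172 and 166 CPM under aegl KO, 229 and 211 CPM under WT, and 51.0 and 59.2 CPM under DPBS. Its aegl KO libraries came nearer to WT than those of DUSP6 or SPRY4 did. DUSP4 rose by 1.61 ± 0.13 (edgeR adjusted p = 0.0004561) and was 0.38 ± 0.12 lower with aegl KO than with WT, which did not pass (adjusted p = 0.05523). DUSP5 and SPRED1 completed the 6, with rises of 1.03 (adjusted p = 0.02123) and 1.02 (adjusted p = 0.03217), DUSP5 encoding another ERK phosphatase and SPRED1 an inhibitor of Ras-ERK signalling.

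Of the 13 ERK feedback and output genes tested, 6 rose (beside 0.0963% of all genes by edgeR) and 0 fell with aegl KO. DESeq2 called 7, beside 2.51% of all genes. All 13 had a positive change, beside 49.3% of all genes, and their median was 1.02, beside -0.0055 over all 16613 genes. Since the list was chosen with earlier results of these data known, these counts describe it and do not test it. With aegs KO both tools called 0, 0 had an unadjusted p under 0.05, 11 were positive and the median was 0.09. The other 7 did not pass under aegl KO: their values ran from 0.23 for the transcription factor ETV4 (adjusted p = 0.5202) to 1.11 for SPRY1 (adjusted p = 0.3157), a gene at 0.931 and 1.43 CPM under aegl KO against 0.526 and 0.571 CPM under DPBS. With the WT extract all 13 rose, beside 11.6% of all genes, with a median of 2.

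**Figure D1:**
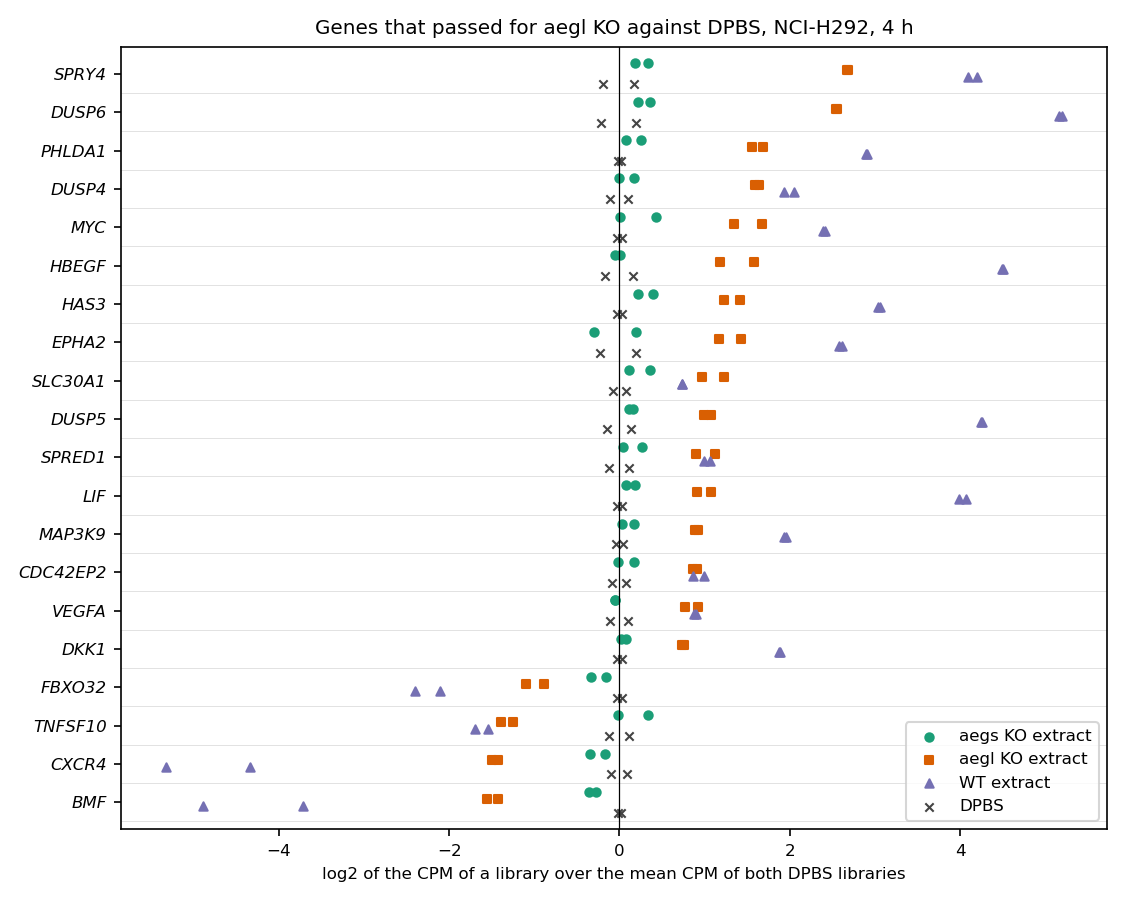
Each row is one of the 20 genes called for aegl KO against DPBS, and each point one library, as log2 of its CPM over the mean CPM of both DPBS libraries (circles aegs KO, squares aegl KO, triangles WT, crosses DPBS). The aegl KO libraries overlapped the DPBS libraries in 0 of the 16 raised genes, which the choice of genes by that same comparison favours. The aegs KO libraries overlapped DPBS in 10 of the 16. Overlap was not counted over all genes, so these counts do not compare the extracts.

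The promoters of the pair of genes with the largest changes, and of the one raised gene that held a cyclic AMP response element, are shown as RefSeq (GRCh38.p14) gives them, as the 250 bases before the start of the gene, 5′ to 3′ on the gene's strand. All 3 genes are on the minus strand, DUSP6 at chr12:89352502-89352751, SPRY4 at chr5:142324248-142324497 and EPHA2 at chr1:16156070-16156319. Capitals mark the element TGACGTCA, the site known to bind CREB factors.
DUSP6: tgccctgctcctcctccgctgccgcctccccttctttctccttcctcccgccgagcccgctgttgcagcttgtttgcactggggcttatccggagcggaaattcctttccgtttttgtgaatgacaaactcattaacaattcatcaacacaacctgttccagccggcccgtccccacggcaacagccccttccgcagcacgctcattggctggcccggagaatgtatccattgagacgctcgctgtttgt
SPRY4: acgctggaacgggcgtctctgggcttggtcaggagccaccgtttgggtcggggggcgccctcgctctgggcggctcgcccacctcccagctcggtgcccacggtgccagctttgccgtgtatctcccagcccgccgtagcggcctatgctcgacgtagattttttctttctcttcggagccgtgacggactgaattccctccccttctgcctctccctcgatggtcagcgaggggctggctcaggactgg
EPHA2: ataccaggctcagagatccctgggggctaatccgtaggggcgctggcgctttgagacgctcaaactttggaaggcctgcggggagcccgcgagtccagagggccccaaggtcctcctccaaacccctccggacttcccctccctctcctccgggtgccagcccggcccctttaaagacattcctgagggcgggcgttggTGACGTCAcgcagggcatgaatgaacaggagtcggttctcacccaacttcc
Promoters were found for 11 of the 16 raised genes and searched on both strands over 300 bases, 250 before to 50 after the start. TGACGTCA was in 1 of 11, EPHA2, 51 bases before the start, and in 1.85% of 35116 promoters of that length. The ETS motif CCGGAAG was in 0 of 11 and in 10.3% of all promoters, the AP-1 motif TGANTCA in 0 of 11 and in 7.71%, and the CArG box of serum response factor in 0 of 11 and in 1.29%. Each motif was counted on its own, so bases shared by a pair of motifs would count for both, and the counts describe only the letters of these windows.

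Secreted factors and a receptor made up a further group. HBEGF encodes a ligand of the EGF receptor, itself an activator of ERK, and stood at 10.3 and 9.88 CPM under aegs KO, 30.5 and 23.2 CPM under aegl KO, 232 and 231 CPM under WT, and 9.09 and 11.4 CPM under DPBS. It rose by 1.39 ± 0.16 with aegl KO (edgeR adjusted p = 0.009677), while the aegs KO values lay within those of DPBS. Of 7 EGF receptor ligands HBEGF was the only one called by edgeR, beside 0.120% of all genes. DESeq2 called 2, beside 2.51% of all genes, and 3 had an unadjusted p under 0.05, beside 13.5%. TGFA, at 73.0 and 70.8 CPM under aegl KO against 47.0 and 46.8 CPM under DPBS, did not pass (0.62, adjusted p = 0.08298). LIF, a cytokine of the interleukin-6 family, stood at 16.8 and 15.7 CPM under aegs KO, 27.9 and 31.3 CPM under aegl KO, 248 and 235 CPM under WT, and 15.2 and 14.5 CPM under DPBS, and rose by 1.0 ± 0.12 (edgeR adjusted p = 0.01247). VEGFA, the vascular endothelial growth factor, rose by 0.84 (adjusted p = 0.03217), with 152 and 137 CPM under aegl KO against 86.5 and 75.0 CPM under DPBS. DKK1, a secreted inhibitor of Wnt signalling, rose by 0.75 (adjusted p = 0.03217).

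EPHA2, a receptor tyrosine kinase of epithelial cells, had 57.5 and 81.3 CPM under aegs KO, 190.2 and 160.1 CPM under aegl KO, 435 and 423 CPM under WT, and 60.8 and 81.2 CPM under DPBS. It rose by 1.30 ± 0.19 with aegl KO (edgeR adjusted p = 0.03298), and in each of the aegs KO and DPBS groups its libraries lay far apart from each other. HAS3, a synthase of hyaluronan, stood at 23.0 and 26.1 CPM under aegs KO, 46.5 and 53.2 CPM under aegl KO, 166 and 163 CPM under WT, and 20.2 and 19.5 CPM under DPBS. It rose by 1.33 ± 0.12 with aegl KO (edgeR adjusted p = 0.001904), and its change with aegs KO was 0.31 with a 95% interval from 0.03 to 0.58, an unadjusted p of 0.03164 that did not survive adjustment (0.9997). SLC30A1 encodes a zinc exporter of the cell surface and rose by 1.10 ± 0.14 (adjusted p = 0.01452). Its aegl KO libraries, at 149.9 and 125 CPM, lay above both WT libraries, each at 106 CPM, although the difference of 0.37 did not pass (adjusted p = 0.07901). MAP3K9, a kinase upstream of JNK, rose by 0.90 (adjusted p = 0.01909), and CDC42EP2, an effector of the GTPase CDC42, by 0.89 (adjusted p = 0.04931).

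MYC, a transcription factor of growth and a member of the immediate early list, stood at 37.0 and 49.5 CPM under aegs KO, 93.8 and 118 CPM under aegl KO, 194 and 197 CPM under WT, and 36.1 and 37.5 CPM under DPBS. It rose by 1.52 ± 0.16 with aegl KO (edgeR adjusted p = 0.004926). MYC was the only one of 20 immediate early genes called by edgeR, beside 0.120% of all genes. DESeq2 called 4, beside 2.51% of all genes, and 7 had an unadjusted p under 0.05, beside 13.5%. The median of that list was 0.21 with aegl KO and -0.13 with aegs KO, with 13 and 5 members positive. With WT 18 of the 20 rose and 1 fell, beside 11.6% and 11.3% of all genes, at a median of 4.15.

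FOS, a subunit of the factor AP-1, was among the members that did not pass. It stood at 3.63 and 4.23 CPM under aegs KO, 7.78 and 6.35 CPM under aegl KO, 3086 and 3048 CPM under WT, and 4.67 and 5.41 CPM under DPBS. Its change with aegl KO was 0.49 (edgeR adjusted p = 0.2676) and did not pass, and with the WT extract it rose by 9.25. EGR1 stood at 6.07 and 6.21 CPM under aegs KO, 7.83 and 12.2 CPM under aegl KO, 739 and 663 CPM under WT, and 6.75 and 10.6 CPM under DPBS. The aegl KO libraries overlapped those of DPBS, and both aegs KO libraries lay below them. Neither change passed: that under aegs KO was -0.49 (edgeR adjusted p = 0.9997) and the one under aegl KO 0.22 (adjusted p = 0.7164). JUN, at 44.2 and 40.6 CPM under aegl KO against 16.2 and 28.8 CPM under DPBS, had a change of 0.92 (adjusted p = 0.1783), and FOSL1 one of 1.12 (adjusted p = 0.07427). ATF3, a stress-induced factor, was at 30.6 and 32.6 CPM under aegl KO against 48.1 and 49.8 CPM under DPBS, a change of -0.63 that did not pass (adjusted p = 0.1167).

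**Figure D2:**
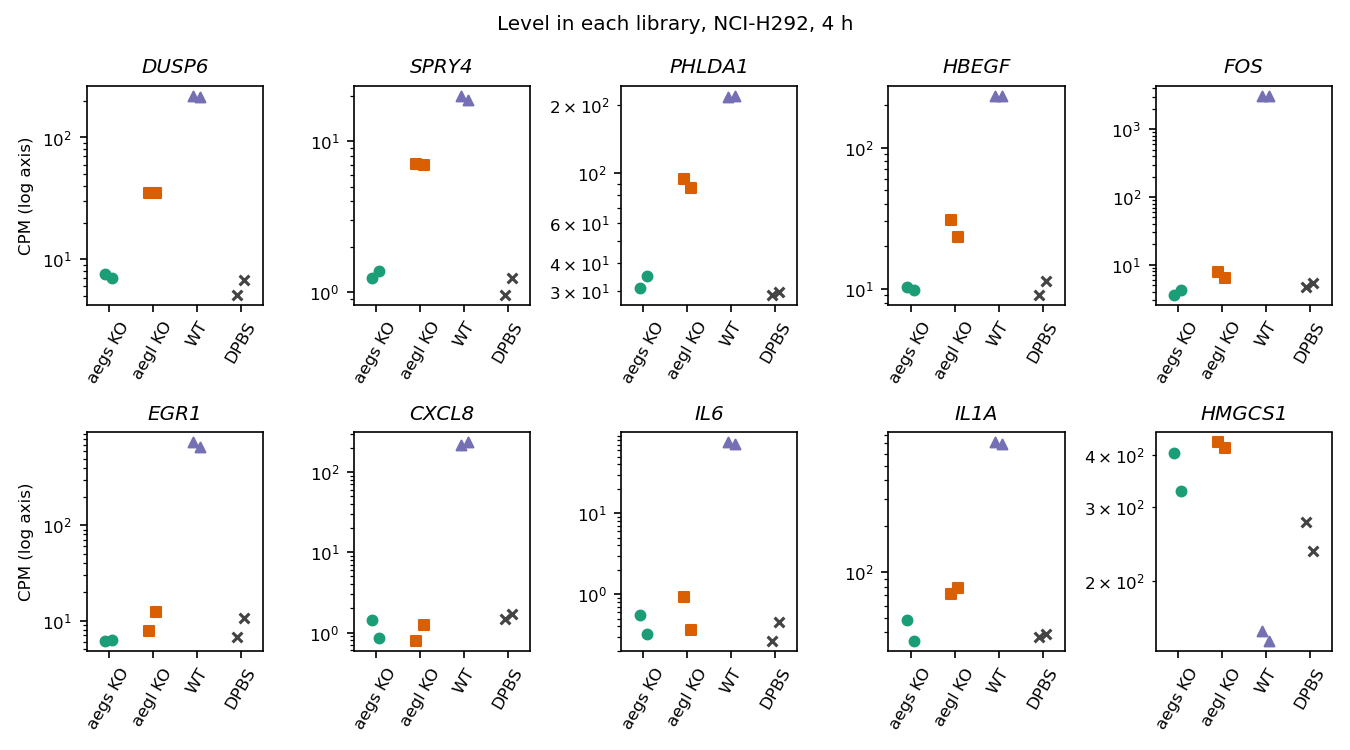
CPM in each library on a log axis for 10 genes, with the groups from left to right aegs KO, aegl KO, WT and DPBS and 2 libraries each. DUSP6, SPRY4 and PHLDA1 under aegl KO lie between WT and DPBS, FOS, EGR1, CXCL8 and IL6 lie near DPBS under both knockout extracts, and HMGCS1 lies above DPBS under both knockout extracts and below it under WT.

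CXCL8 and IL6, which the WT extract raised, did not pass against DPBS with either knockout extract. CXCL8, the neutrophil chemokine, stood at 1.43 and 0.864 CPM under aegs KO, 0.780 and 1.25 CPM under aegl KO, 219 and 234 CPM under WT, and 1.48 and 1.71 CPM under DPBS. IL6 stood at 0.556 and 0.327 CPM under aegs KO, 0.931 and 0.364 CPM under aegl KO, 74.8 and 70.6 CPM under WT, and 0.263 and 0.451 CPM under DPBS. IL1A, an alarmin cytokine, came close: 47.9 and 35.0 CPM under aegs KO, 71.2 and 78.7 CPM under aegl KO, 711 and 697 CPM under WT, and 37.3 and 39.2 CPM under DPBS. Its change with aegl KO was 0.97 ± 0.15, just outside the threshold (edgeR adjusted p = 0.05033). Of 13 epithelial cytokines tested, LIF alone was called by edgeR with aegl KO (median 0.25, against 1.34 with WT), and of 10 chemokines and 15 NF-kB feedback genes 0 were called (medians -0.17 and 0.16, against 3.78 and 1 with WT). DESeq2 called 3 of the cytokines, 0 of the chemokines and 1 of the NF-kB feedback genes, and 5, 2 and 4 had an unadjusted p under 0.05. Over all genes edgeR called 0.120% and DESeq2 2.51% with aegl KO, and 13.5% had an unadjusted p under 0.05. With the aegs KO extract neither tool called a member of these lists, and the medians were 0.04, 0.01 and 0.01. There 1 cytokine and 0 genes of the other lists had an unadjusted p under 0.05, beside 1.85% of all genes.

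Genes of cholesterol synthesis are induced by the factor SREBP2 when membrane cholesterol is low. HMGCS1, a synthase at the start of that path, was at 406 and 329 CPM under aegs KO, 429 and 417 CPM under aegl KO, 151 and 143 CPM under WT, and 276 and 236 CPM under DPBS. All 4 knockout libraries lay above both DPBS libraries and both WT libraries below them. Its change of 0.52 ± 0.14 with aegs KO did not pass (edgeR adjusted p = 0.9997), nor did that of 0.73 ± 0.14 under aegl KO (adjusted p = 0.1154). In the list, 14 of 16 genes had a positive change with each knockout extract, beside 49.5% of all genes with aegs KO and 49.3% with aegl KO. The count called by edgeR was 0 with each. The medians were 0.10 with aegs KO, 0.36 with aegl KO and -0.26 with WT. With WT 1 rose and 7 fell, beside 11.6% and 11.3% of all genes. With aegl KO 9 of the 16 had an unadjusted p under 0.05, beside 13.5% of all genes, and DESeq2 called 5, beside 2.51%. With aegs KO 2 had an unadjusted p under 0.05, beside 1.85% of all genes, and DESeq2 called 0. The comparisons share the DPBS libraries.

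Each of the other lists had at most 1 member called by edgeR with aegl KO, beside 0.120% of all genes, and 0 with aegs KO. The called members were SLC30A1 among 5 metallothionein and zinc genes and VEGFA among 15 hypoxia and glycolysis genes. SLC30A1 was the only 1 of its 5 with a positive change, and the median of that list was -0.20. DESeq2 called 0 to 3 members of each with aegl KO, beside 2.51% of all genes, and 0 with aegs KO. An unadjusted p under 0.05 was found in 0 to 6 members with aegl KO and 0 to 2 with aegs KO. Over all genes those shares were 13.5% and 1.85%. Medians with aegl KO were -0.07 for 17 NRF2 targets, -0.15 for 10 AHR targets, -0.24 for 15 p53 targets, 0.20 for 8 YAP targets and 0.08 for 12 targets of calcium, CREB and NFAT, against -1.08, -0.77, -0.39, 1.82 and 2.03 with WT. The medians of 9 mucus and goblet genes and of 17 genes of annexins and membrane repair were -0.18 and -0.13 with aegl KO.

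**Figure D3:**
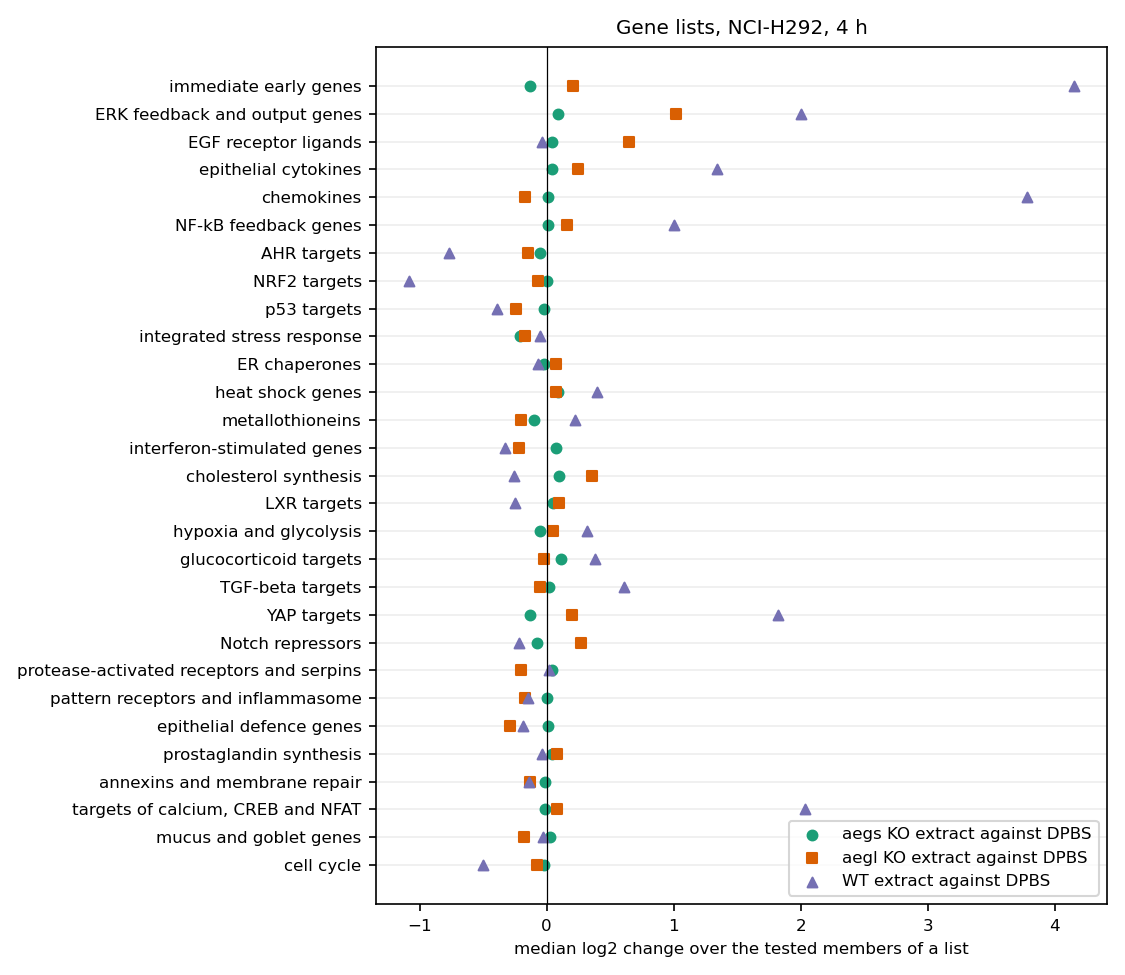
Median log2 change over the tested members of each gene list, against DPBS, for aegs KO (circles), aegl KO (squares) and WT (triangles). The ERK feedback list has the largest median among the squares, at 1.02, while its circle is at 0.09. The WT medians of the immediate early genes and chemokines are 4.15 and 3.78. The lists were chosen with earlier results of these data known.

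The 4 genes that fell with aegl KO act in cell death, migration and protein turnover. TNFSF10, which encodes the death ligand TRAIL, stood at 22.5 and 17.6 CPM under aegs KO, 6.75 and 7.49 CPM under aegl KO, 5.49 and 6.09 CPM under WT, and 19.2 and 16.3 CPM under DPBS. It fell by 1.32 on the log2 scale with aegl KO (SE 0.18, edgeR adjusted p = 0.02292), to near the WT level, from which it did not differ past the threshold (0.30 ± 0.18, adjusted p = 0.2896). BMF, a BH3-only activator of apoptosis, had 26.6 and 25.1 CPM under aegs KO, 11.9 and 11.0 CPM under aegl KO, 1.08 and 2.45 CPM under WT, and 32.7 and 31.8 CPM under DPBS. BMF fell by 1.49 (edgeR adjusted p = 0.04959), and CXCR4, a chemokine receptor, fell by 1.46 (adjusted p = 0.04959), with 3.60 and 3.43 CPM under aegl KO against 10.3 and 9.04 CPM under DPBS. FBXO32, a ubiquitin ligase subunit, fell by 0.99 (adjusted p = 0.03854). In BMF, CXCR4 and FBXO32 both aegs KO libraries lay below both DPBS libraries, with changes of -0.32, -0.25 and -0.24 that did not pass. The 4 genes were chosen as low against these same DPBS libraries, which favours that order. Separation of libraries was not counted over all genes, so it does not show a change shared by the extracts.

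The knockout extracts were then set against each other, with no buffer library in the contrast. With aegl KO 11 genes were higher and 1 was lower than with aegs KO (0.0662% and 0.00602% of 16613 genes, 0.0722% together, edgeR), and DESeq2 called 134 (0.977%). The 11 were DUSP4, DUSP6, EPHA2, HAS3, HBEGF, LIF, MAP3K9, MYC, PHLDA1, SPRY4 and VEGFA, and the lower one was TNFSF10. All 12 were among the 20 called against DPBS, a count that shares the aegl KO libraries. SPRY4 was 2.42 ± 0.20 higher (5.36-fold, edgeR adjusted p = 0.0007487), DUSP6 2.26 ± 0.15 higher (4.78-fold, adjusted p = 0.0002484) and TNFSF10 1.49 lower (SE 0.18, adjusted p = 0.01431). DUSP5, SPRED1, SLC30A1, CDC42EP2 and DKK1 did not pass, with differences of 0.70 to 0.89. The count was 7 without aegl KO 1, 77 without aegl KO 2, 6 without aegs KO 1 and 879 without aegs KO 2, and SPRY4, DUSP6, PHLDA1 and DUSP4 passed in all 4.

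Over both knockout extracts together, 4 libraries against 2, 2 genes rose against DPBS (0.0120% by edgeR, 0.175% by DESeq2): DUSP6 by 1.42 ± 0.13 (edgeR adjusted p = 0.01061) and PHLDA1 by 0.90 ± 0.10 (adjusted p = 0.0402). Both means rest on the aegl KO libraries, since with aegs KO alone the changes were 0.30 and 0.17. Without aegl KO 1 or without DPBS 1 the count was 0, and without aegl KO 2 it was 22 and without aegs KO 1 it was 7.

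Under aegs KO, the 10 named genes with the smallest unadjusted p included TET1, which encodes an enzyme that oxidises methylated cytosine, and SRSF10, a splicing factor. TET1 stood at 7.03 and 7.43 CPM under aegs KO, 5.94 and 5.38 CPM under aegl KO and 4.07 and 4.18 CPM under DPBS, a change of 0.81 with aegs KO (edgeR adjusted p = 0.9997). SRSF10 stood at 8.46 and 8.48 CPM under aegs KO, 5.10 and 16.8 CPM under aegl KO, 6.12 and 4.57 CPM under WT, and 30.3 and 33.3 CPM under DPBS. Every extract library lay below both buffer libraries, and the aegl KO libraries differed from each other more than those of the other groups did. Its changes of -1.91 ± 0.40 with aegs KO (unadjusted p = 0.0006372, adjusted 0.9997) and -1.53 ± 0.39 with aegl KO (adjusted p = 0.1946) did not pass, and with WT it fell by 2.57 (adjusted p = 0.001685). The other 8 of the 10 were HMGCS1, the pseudogene RPL17P7, NEIL1, MAMDC4, LENG8, MXD3, SLC6A9 and FER1L4, with changes between -0.76 and 0.52.

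How much of the WT response the aegl KO extract kept was read in the same fit, a comparison added after the data were seen. Of the 16 raised genes, 11 were lower with aegl KO than with WT, where 9.13% of all genes were lower. The other 5 did not pass (CDC42EP2, DUSP4, SLC30A1, SPRED1 and VEGFA). The 16 were chosen through the aegl KO libraries that this comparison reuses. The WT extract raised all 16 against DPBS, so the share over all genes is not a like background. DUSP6 was 2.63 ± 0.14 lower (edgeR adjusted p = 8.941e-07) and SPRY4 1.46 ± 0.18 lower (adjusted p = 0.0003513). Of the 4 lowered genes, BMF, CXCR4 and FBXO32 were higher with aegl KO than with WT, where 9.85% of all genes were. The WT extract lowered all 4 against DPBS, so the same limits hold for them. In SPRED1, CDC42EP2 and VEGFA the libraries of aegl KO and WT overlapped, at 55.9 and 47.6 CPM under aegl KO and 53.4 and 51.0 CPM under WT for SPRED1.

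The same genes were followed in the second NCI-H292 experiment, whose libraries and buffer controls are separate: Aeg-S/L, both proteins together, alone or with the calcium chelators EGTA or BAPTA-AM. Its deposited table is named for ALT, whereas its samples are labelled Aeg-S/L. With Aeg-S/L against DPBS, all 16 raised genes rose, where 22.1% of 16380 genes did, and all 4 lowered genes fell, where 21.1% did. DUSP6 stood at 188 and 184 CPM under Aeg-S/L against 5.39 and 6.03 CPM under DPBS, and SPRY4 at 25.5 and 24.1 CPM against 0.953 and 1.48 CPM. With EGTA added, 12 of the 16 were lower than with Aeg-S/L alone and 3 higher (MYC, SLC30A1 and VEGFA), beside 21.7% and 23.2% of all genes. DUSP6 then stood at 40.8 and 30.0 CPM, a fall of 2.39 on the log2 scale (SE 0.10, edgeR adjusted p = 4.924e-13). With BAPTA-AM 15 were lower and HAS3 was higher, beside 20.3% and 17.6% of all genes. Of the 4 lowered genes, BMF, FBXO32 and TNFSF10 were higher with EGTA than with Aeg-S/L alone, and CXCR4 did not pass. With BAPTA-AM only TNFSF10 was higher, and BMF, CXCR4 and FBXO32 were lower. Mitochondrial transcripts made up 0.19 and 0.217% of the counts with BAPTA-AM and 1.4 and 1.06% with EGTA, against 2.05 and 1.82% with Aeg-S/L alone, and their part in these differences was not tested. The comparisons share the Aeg-S/L libraries. No library of that experiment had a chelator without Aeg-S/L. A chelator's own effect on the cells therefore cannot be told apart from its effect on the Aeg-S/L response.

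Read the other way, the 200 genes that Aeg-S/L raised most clearly in that experiment were looked up under the knockout extracts. With aegs KO 0 of 200 were called and their median change was 0.01, and with aegl KO 11 of 200 rose by edgeR, beside 0.0963% of all genes, 0 fell and the median was 0.07, beside medians of -0.0027 and -0.0055 over all genes. With the WT extract 194 of the 200 rose, beside 11.6% of all genes, with a median of 1.76. The 11 were DKK1, DUSP4, DUSP5, DUSP6, EPHA2, HAS3, HBEGF, LIF, MAP3K9, MYC and PHLDA1. Genes of that set with large WT changes, such as CXCL2 (7.10), PTGS2 (6.39) and TNFAIP3 (5.59), had changes of 0.29, 0.48 and 0.34 with aegl KO, none of which passed.

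NCI-H1437, another epithelial line from a non-small cell lung cancer, received extracts with the same labels in an experiment of its own. There 23 genes rose and 158 fell with aegs KO (1.08% of 16711), and 28 rose (0.168%) and 100 fell (0.598%, 0.766% in all) with aegl KO. Of the 16 genes, HAS3 and PHLDA1 rose with aegl KO in NCI-H1437 and VEGFA fell, and 12 rose with the WT extract, as 15.8% of all genes did. SPRY4 (0.52, edgeR adjusted p = 0.05004) and EPHA2 (0.37, adjusted p = 0.05287) were just outside the threshold with aegl KO. Of the 4 lowered genes 3 were tested there. TNFSF10 fell with aegl KO (-0.77, adjusted p = 0.007755), and BMF (-0.72, adjusted p = 0.08183) and FBXO32 (-0.44, adjusted p = 0.2247) did not pass. With aegs KO BMF fell (-0.83, adjusted p = 0.04258). With the WT extract TNFSF10 and BMF fell there, and FBXO32 rose by 1.84. DUSP6 stood there at 21.8 and 19.5 CPM under aegl KO against 16.04 and 15.6 CPM under DPBS, a change of 0.39 ± 0.10 (edgeR adjusted p = 0.06848), although the WT extract raised it by 1.98. MYC stood at 312 and 292.3 CPM under aegl KO against 305 and 290.4 CPM under DPBS. The WT extract did not raise MYC there either (315.4 and 315.2 CPM, a change of 0.08, edgeR adjusted p = 0.2674), and it raised MAP3K9 by only 0.24.

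The difference between the lines was tested in a joint fit, each effect against its own DPBS. The aegl KO effect differed in 12 of 18604 genes (0.0645%), 10 larger (0.0538%) and 2 smaller (0.0108%) in NCI-H292, and the aegs KO effect in 0, with 1040 genes at an unadjusted p under 0.05 and 13 called by DESeq2. Of the 16 raised genes 7 differed: SPRY4 by 2.14 ± 0.24 (edgeR adjusted p = 0.000565), DUSP6 by 2.13 ± 0.17 (adjusted p = 1.75e-05), MYC, DUSP4, VEGFA, PHLDA1 and MAP3K9. The 16 were chosen through the NCI-H292 aegl KO and DPBS libraries that this contrast reuses, which favours a larger effect in NCI-H292. The lines were sequenced in separate experiments, so line and experiment cannot be told apart. In NCI-H1437 the WT extract itself did not raise MYC past the threshold and raised MAP3K9 by only 0.24. SPRY4, DUSP6, MYC, DUSP4 and VEGFA passed under every alternative tried, and PHLDA1 and MAP3K9 did not: without NCI-H292 DPBS 1, NCI-H1437 DPBS 1 or NCI-H1437 DPBS 2 only those 5 of the 12 kept their call. The count of 12 became 365 without NCI-H292 aegl KO 2 and lay between 5 and 7 without any other single library, and the count of 0 for aegs KO became 25 without NCI-H292 aegs KO 1.

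**Figure D4:**
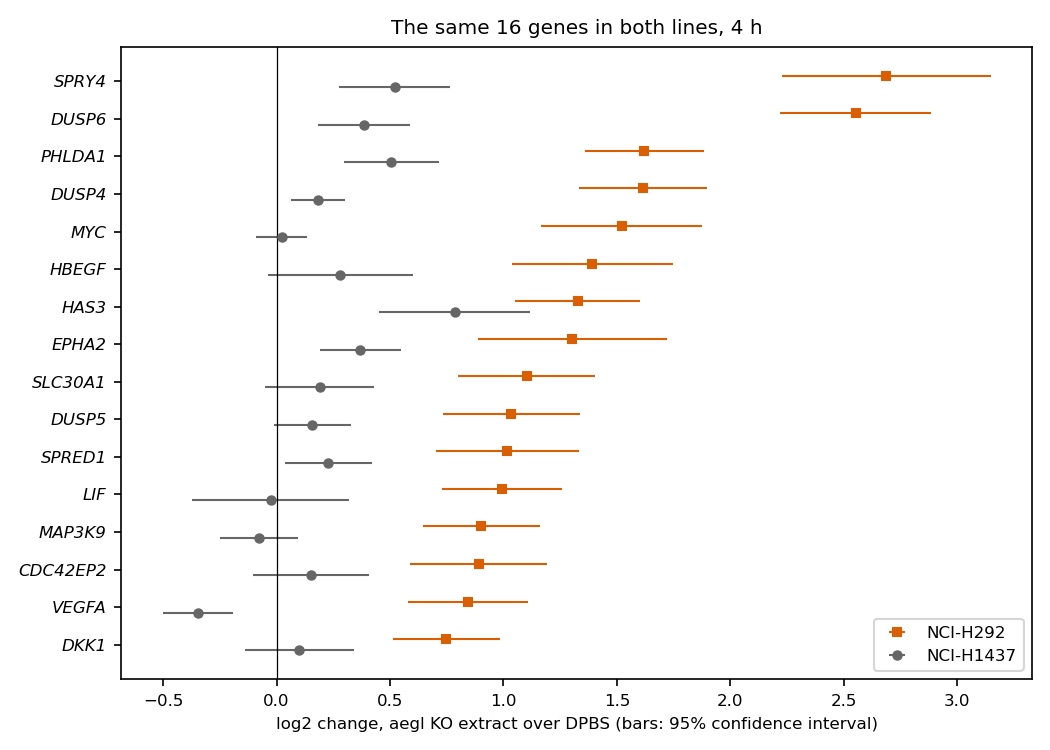
Log2 change of the 16 genes with aegl KO over DPBS in NCI-H292 (squares) and NCI-H1437 (circles), with 95% confidence intervals from edgeR. The 16 were chosen by the NCI-H292 change drawn here, which favours larger values in that line. SPRY4 and DUSP6 are at 2.69 and 2.55 in NCI-H292 and at 0.52 and 0.39 in NCI-H1437, and VEGFA is above 0 in NCI-H292 and below 0 in NCI-H1437.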

How the data were processed

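A TIANGEN kit gave the RNA and the NEBNext Ultra kit, which does not mark strand, the libraries, per the labels. The strand setting of the counting is not stated in the sources. Per the submitters' processing notes, HISAT2 2.2.1, SAMtools, featureCounts 2.0.2, DESeq2 1.36.0 and R 4.2.2 were used, with hg19 for human. The authors deposited raw counts per gene, and gene length and position in other columns of the deposited table; 0 count columns were left unused. Reads of overlapping genes and pseudogenes may be shared, and RPL17P7 and SMG1P2 are uncertain for that reason.

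Of 57820 gene IDs, 16613 passed filterByExpr over the groups, and 15196 of these had a name (39538 of all). The 8 libraries of the table, 2 in each of 4 groups, were fitted together with edgeR 4.0.16 (R 4.3.3, limma 3.58.1): TMM scaling, 1 coefficient per group, quasi-likelihood F test, Benjamini-Hochberg adjustment over all genes tested, calls at an adjusted p under 0.05. SE is the absolute log2 change over the square root of F. The NCI-H1437 table and the second NCI-H292 table were fitted alike (16711 and 16380 genes), and the line difference in 1 fit of 16 libraries (18604 genes). Columns naming BAPTA-AM alone were taken as the Aeg-S/L+BAPTA-AM samples, the only ones of that table with this chelator. The Aeg-S/L set held at most 200 genes with the smallest p among those with a log2 increase of at least 1.

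Named genes are list members given as examples or called, and the 15 largest increases and 10 largest decreases called where libraries did not overlap and the higher group averaged at least 1 CPM; where fewer than 10 genes were called, also the 10 with the smallest unadjusted p. DKK1, the last of the 16 that rose, the genes behind counts of 5 or fewer under alternatives, and the genes singled out by the line difference were named after their values were seen. The members and lists were chosen with earlier results of these data known. Alternatives were DESeq2 1.42.0, no low-count filter, DESeq2 size factors, the replicate number as a block, the 6 libraries alone, and each library left out. Comparisons with WT, the chelators and the promoter motifs were added after the data were seen. Replicate libraries differed by more than sampling noise (chi-square per degree of freedom 27.92 to 71.36 in the 6 and 4.22 in WT), so none was a copy. Figures were drawn with matplotlib 3.10.9 in Python 3.11.15.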

Additional observations from a re-analysis of the deposited data

Results flagged for a closer look

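In 12 genes the effect of the aegl KO extract differed between NCI-H292 and NCI-H1437 by a test of the difference itself (edgeR, joint fit). The log2 difference, NCI-H292 minus NCI-H1437, was 2.14 for SPRY4, 2.13 for DUSP6, 1.47 for MYC, 1.4 for DUSP4, 1.15 for VEGFA, 1.08 for PHLDA1 and 0.95 for MAP3K9, all among the 16 genes raised in NCI-H292. MICAL2, an actin-oxidising enzyme, differed by 1.02 (adjusted p = 0.04695), SLC20A1, a phosphate transporter, by 0.72 (adjusted p = 0.03841) and RIF1, a regulator of replication timing and DNA repair, by 0.72 (adjusted p = 0.04382). These 3 did not pass in NCI-H292 alone. The difference was -1.03 for CDKN1A, the cell cycle inhibitor p21, which was at -0.40 in NCI-H292 (adjusted p = 0.2275) and rose by 0.60 in NCI-H1437 (adjusted p = 0.0237). For AKR1C3, an aldo-keto reductase, it was -0.79 (adjusted p = 0.03841), with -0.67 in NCI-H292 and 0.09 in NCI-H1437, neither of which passed. The 16 raised genes were chosen through NCI-H292 libraries that the difference reuses, which favours a larger effect in that line. Line and experiment cannot be told apart in these differences. For MYC and MAP3K9 the WT extract had changes of only 0.08 and 0.24 in NCI-H1437.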

How the results depend on the processing

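Counts of called genes moved with the tool and the filter. DESeq2 called 1 gene for aegs KO against DPBS, 288 for aegl KO, 24 for both extracts, 134 for aegl KO against aegs KO, 13 for the line difference of aegs KO and 305 for that of aegl KO. With every counted gene kept, edgeR called 18, 763, 151, 654, 72 and 525; that fit tested 29159 genes and estimated an infinite prior degrees of freedom, against 6.48. With the 6 libraries alone the counts were 7 for aegl KO, 0 for both and 6 for the direct comparison. Leaving out single libraries gave 0 to 2 for aegs KO (CUTA without aegs KO 1, SMG1P2 and ENSG00000224882.2 without aegs KO 2), 4 to 103 for aegl KO, 0 to 22 for both, 6 to 879 for the direct comparison, 1481 to 2519 for WT against DPBS, 1122 to 2659 for aegl KO against WT, and 0 to 25 and 5 to 365 for the line differences of aegs KO and aegl KO. A group left with 1 library was assumed to vary like the others. DESeq2 size factors left every count within 1.5 times.

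The labels link libraries of different groups by replicate number alone. Same-numbered deviations from the group means correlated at 0.513 between aegs KO and DPBS and at -0.116 to -0.007 in the other pairs. The main test has no pairing, and a block over all groups cannot model a pairing of aegs KO and DPBS only. The counts for aegs KO against DPBS carry that limit. The replicate block gave 0 for aegs KO, 21 for aegl KO with 18 of the 20 kept, 1 for both, 13 for the direct comparison and 12 for the line difference. The median of the Aeg-S/L set was -0.02 with 50 genes for aegs KO, and without single libraries -0.01 to 0.04 for aegs KO, 0.06 to 0.11 for aegl KO, 0.03 to 0.08 for both and 0.05 to 0.08 directly.

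Signs turned in 25 values, all without 1 library and 0 with an adjusted p under 0.05. The ranges were, for aegs KO, EPHA2 -0.3 to 0.19, TNFSF10 -0.02 to 0.35, HBEGF -0.17 to 0.15 (0.02), VEGFA -0.15 to 0.06, DUSP4 -0.02 to 0.19, CDC42EP2 -0.01 to 0.17, IL6 -0.09 to 0.75, IL1A -0.14 to 0.33 and FOSL1 -0.13 to 0.07. For aegl KO, EGR1 ran from -0.15 to 0.57, and for both extracts FOS ran from -0.04 to 0.17 and EGR1 from -0.44 to 0.21. In the direct comparison CXCL8 ran from -0.57 to 0.25, IL6 from -0.28 to 1.05 and SRSF10 from -0.74 to 0.99, and for the line difference EGR1 from -0.14 to 0.58. The causes were not tested. With 2 libraries a group, changes under about the spread of those libraries cannot be seen.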
